A study of Sus scrofa with 7 samples.

Results

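The receptors for serotonin, dopamine, noradrenaline, histamine and acetylcholine were examined in piglet hypothalamus after antibiotics or saline had been infused into the distal ileum. Members were the rows of the authors' deposited table whose gene symbol names a receptor or receptor subunit for 1 of these transmitters. The rule found 39 of the 16991 rows, each with a symbol of its own, and the authors had tested 24 of them. The antibiotic group was infused with 10 mL of saline carrying daily doses of 150 mg ampicillin, 4 mg gentamicin and 30 mg metronidazole per kg, and the control group with 10 mL of saline (0.9% NaCl) alone. All piglets were 45 days old, of the strain labelled Duroc x Landrace x Large White, and all carried a T-cannula, a fixed tube into the distal ileum. RNA-seq libraries came from 3 antibiotic and 4 control hypothalami, out of 12 randomised piglets, and by its title the series is about neurotransmitter expression in this region.

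Amine and acetylcholine receptors act by a few routes. Those coupled to Gs raise cyclic AMP, those coupled to Gi/o lower it and often quieten the neuron, and those coupled to Gq/11 act through phospholipase C and calcium. Nicotinic acetylcholine receptors and the serotonin receptors built from HTR3 subunits are ion channels that open when the transmitter binds. In the hypothalamus these receptors carry the signals of brainstem and local amine neurons to the cells that control feeding, arousal, body temperature and hormone release.

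The authors' deposited table gave 1 FPKM value per gene and group. FPKM scales the fragments of a gene by the length of its transcript and by the library's mapped total, so it is a level per length and can be compared between genes. There was no value for a single animal, so neither the spread between animals nor the sequencing depth is known. Replicate error could enter only through the authors' p and q, and how their test used the libraries is not described in the labels. A gene is said to have risen or fallen where the authors' q was under 0.05. The authors' own mark of significance matched a q under 0.05 together with a 2-fold change, and it left out DRD2, HRH2 and ADRA2A. Log2 folds are those of the same table, antibiotic over control, with nothing added to either value. Hypothalamus is a mixture of cells, and fewer cells of a type cannot be told apart from less RNA per cell.

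More of the tested receptor genes rose than fell. By the authors' q, 8 of the 24 rose (33.3%), against a background of 19.0% of 13352 tested features, and 1 of 24 fell (4.17%), against 22.2%. The 8 that rose were CHRNB2, ADRA1B, CHRNA2, ADRB1, ADRA1D, DRD2, HRH2 and ADRA2C, and the 1 that fell was ADRA2A. The log2 fold lay above 0 in 18 of the 24 and below 0 in 6. Its median was 0.59 over the tested receptor genes and -0.03 over all tested features. Among the 6551 tested features with a mean FPKM between those of the lowest and the highest tested receptor gene (0.713 to 8.33), 16.2% rose, 16.9% fell and the median log2 fold was 0.02. Asking for a 2-fold change as well gave 6 rises and 0 falls among the 24 receptor genes, against 7.37% and 8.44% of tested features. At a q under 0.01, 4 of the 24 rose, against 12.8% of tested features, and 1 of the 24 fell, against 15.5%. A further 124 tested rows that carried the gene ontology term for G protein-coupled receptor activity, without being members, had 27 rises, 19 falls and a median log2 fold of -0.02. No test of the difference between these sets was made. In antibiotic every tested receptor row stood at 0.634 FPKM or more and every untested one at 0.603 or less. In control ADRB1, ADRA2C and ADRA1D, which rose, stood at 0.272, 0.475 and 0.658, below the untested CHRM4 at 0.671. Such genes may be among the 24 only through their antibiotic value, which would favour rises. The counts, the 18 above 0 and the median of 0.59 carry this limit. Over all members above 0 in both groups the median was 0.42.

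**Figure D1:**
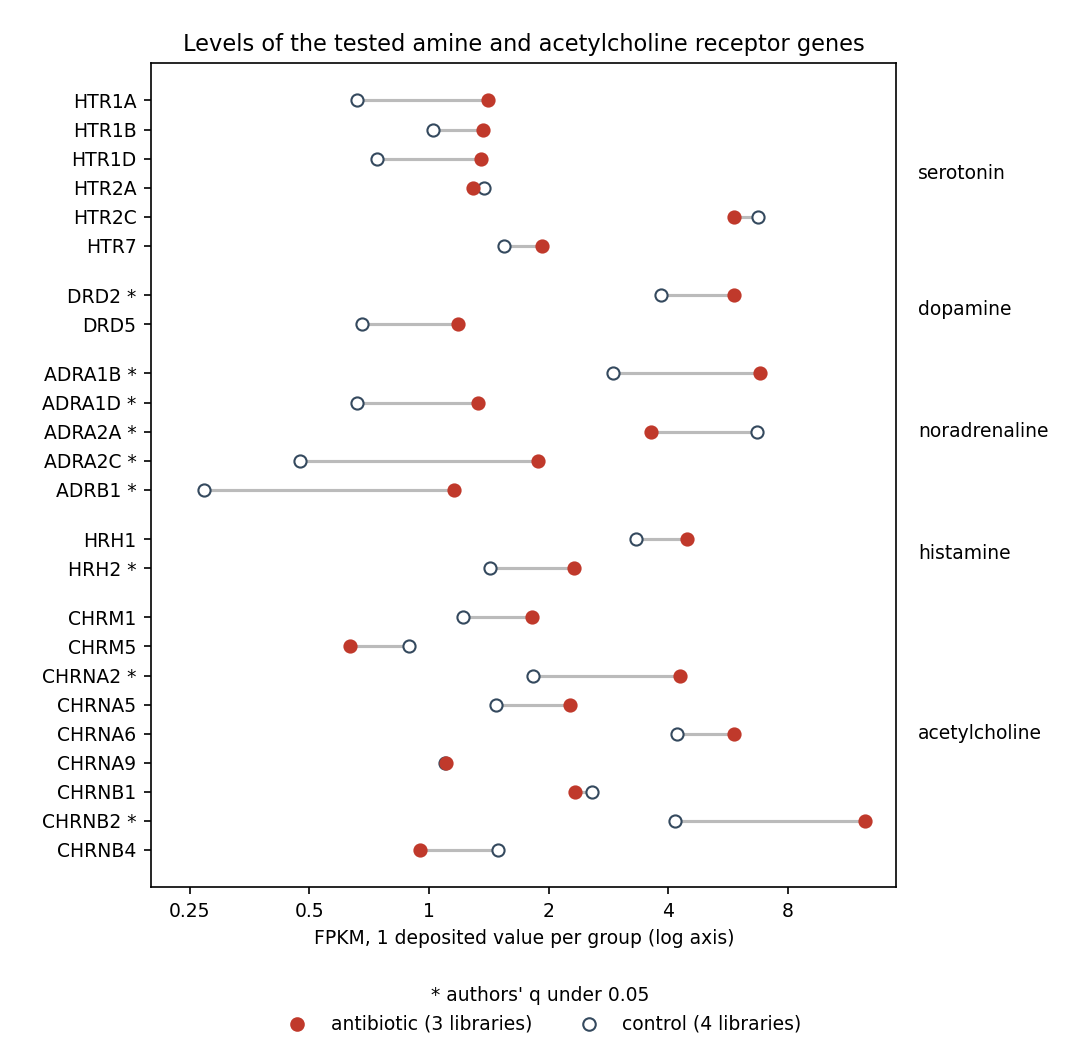
FPKM (log axis, 1 deposited value per group) of the 24 tested receptor genes, grouped by transmitter, in antibiotic (filled) and control (open) hypothalamus; stars mark an authors' q under 0.05. The antibiotic value lies to the right in 18 genes, and CHRNB2 stands farthest to the right at 12.5 FPKM in antibiotic.

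The receptors were weakly expressed genes in both groups. Over the 24 tested rows the FPKM ran from 0.634 to 12.5 with a median of 1.90 in antibiotic, and from 0.272 to 6.74 with a median of 1.45 in control. Only 6 reached 5 FPKM in a group. In the antibiotic group CHRNB2 had the highest FPKM (12.5), followed by ADRA1B (6.82), and DRD2, HTR2C and CHRNA6 came next at 5.85, 5.85 and 5.84. In the control group HTR2C (6.74) and ADRA2A (6.67) had the highest FPKM, and CHRNA6, CHRNB2 and DRD2 followed at 4.22, 4.16 and 3.84 FPKM. Whether neighbours in these orders differ cannot be said without values per animal. The FPKM of all 39 rows summed to 77.0 in antibiotic and 54.7 in control, and without CHRNB2 to 64.5 in antibiotic and 50.5 in control. Over all 16991 features the sum went the other way, at 563424 FPKM in antibiotic and 1.23e+06 in control. Setting these sums equal adds 1.13 to every log2 fold, which puts the median of all tested features at 1.10 and that of the receptor genes at 1.72, so the gap between these medians does not depend on it. Acetylcholine receptors held 42.7% of the antibiotic sum and 36.9% of the control sum. Serotonin receptors held 19.1% of the sum in antibiotic and 24.6% in control, and noradrenaline receptors 19.9% in antibiotic and 21.0% in control. Dopamine receptors held 9.14% in antibiotic and 8.33% in control, and histamine receptors 9.16% in antibiotic and 9.21% in control.

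Each tested noradrenaline receptor row had an authors' q under 0.05. Of 5 tested adrenoceptor genes 4 rose (80.0%) and 1 fell (20.0%), against 19.0% and 22.2% of all tested features. The median log2 fold was 1.23, and with 5 genes each share turns on 1 gene. The alpha-1 receptors couple to Gq/11 and excite neurons and contract vessels. ADRA1B stood at 6.82 FPKM in antibiotic and 2.91 in control (log2 fold 1.23, authors' q = 0.000625). ADRA1D stood at 1.33 FPKM in antibiotic and 0.658 in control (log2 fold 1.02, authors' q = 0.0149), and its log2 fold was 0.49 with 1 FPKM added to both values. The FPKM ratios were 2.34 for ADRA1B and 2.02 for ADRA1D. In the authors' table ADRA1B lies at chromosome 16, 69039661 to 69092287.

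The alpha-2 receptors couple to Gi/o, and as autoreceptors on noradrenaline neurons they restrain transmitter release. Their genes moved in opposite directions. ADRA2A, the main alpha-2 subtype of the brain, fell to 3.62 FPKM in antibiotic, against 6.67 in control (1.84-fold lower, log2 fold -0.88, authors' q = 0.0025). With the summed FPKM of the groups set equal, the log2 fold of ADRA2A was 0.25. That setting puts the median of all tested features at 1.10, so ADRA2A stayed below it. ADRA2C, the other alpha-2 subtype with a known part in feedback on release, rose to 1.89 FPKM in antibiotic, against 0.475 in control (3.97-fold higher, authors' q = 0.0463), and with 1 FPKM added to both values its log2 fold was 0.97, against 1.99 as deposited. ADRA2A thus stood 1.92-fold above ADRA2C in antibiotic and 14.1-fold above it in control. ADRA2C was the last gene inside the threshold, and HTR1A, with an authors' q of 0.0503, was the first outside it. ADRA2B was not tested and stood at 0.492 FPKM in antibiotic and 0.471 in control. In the authors' table ADRA2A lies at chromosome 14, 132402951 to 132406720, and ADRA2C at chromosome 8, 2048701 to 2050084. The alpha-1 genes summed to 8.16 FPKM in antibiotic and 3.57 in control, and the alpha-2 genes to 5.997 in antibiotic and 7.62 in control. The alpha-1 sum was 1.36 times the alpha-2 sum in antibiotic and 0.468 times it in control. ADRA1A, found by gene ID alone and not tested, is not in these sums, and with its 0.435 FPKM in antibiotic and 0.658 in control the alpha-1 sum was 1.43 times the alpha-2 sum in antibiotic and 0.555 times it in control.

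Among the beta receptors, which couple to Gs, ADRB1 rose to 1.15 FPKM in antibiotic, against 0.272 in control (4.24-fold higher, log2 fold 2.08, authors' q = 0.00896). It had the largest log2 fold of the 24 and the lowest control value, and with 1 FPKM added to both values its log2 fold was 0.76. It lies at chromosome 14, 135520691 to 135523298, in the authors' table. ADRB3, the beta receptor of fat tissue, was not tested and stood at 0.0170 FPKM in antibiotic, and it was listed at 0 in control. The enzyme that makes noradrenaline, DBH, and its uptake carrier, SLC6A2, were not tested either, at 0.0592 and 0.0328 FPKM in antibiotic, and both were listed at 0 in control.

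Of the dopamine receptors, DRD2 rose to 5.85 FPKM in antibiotic, against 3.84 in control (1.53-fold higher, authors' q = 0.0317). DRD2 couples to Gi/o and serves both as the autoreceptor of dopamine neurons and as a receptor on their target cells. DRD5, which couples to Gs, stood at 1.18 FPKM in antibiotic and 0.679 in control and did not pass (authors' q = 0.116). DRD4 was not tested, being listed at 0 in antibiotic and at 0.0351 FPKM in control. Beside DRD2, the dopamine transporter gene SLC6A3 rose to 9.57 FPKM in antibiotic, against 0.390 in control (authors' q = 0.000336).

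Histamine receptors stood higher in antibiotic in both tested rows, and 1 passed. HRH2, which couples to Gs, rose to 2.31 FPKM in antibiotic, against 1.42 in control (1.62-fold higher, authors' q = 0.0418), a log2 fold of 0.70 that was 0.45 with 1 FPKM added to both values. HRH1, the Gq/11-coupled receptor through which histamine promotes waking, stood at 4.46 FPKM in antibiotic and 3.32 in control (authors' q = 0.101). HRH4, a receptor known mainly from immune cells, was not tested and stood at 0.284 FPKM in antibiotic and 0.292 in control. The gene of the enzyme that makes histamine, HDC, fell to 5.66 FPKM in antibiotic, against 20.5 in control (authors' q = 0.000336).

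None of the 6 tested serotonin receptor genes had an authors' q under 0.05, while 19.0% of all tested features rose and 22.2% fell. The median log2 fold was 0.37, with 4 above 0 and 2 below. At an unadjusted p of 0.05, 1 of the 6 would pass, HTR1A, with an authors' p of 0.0199. Outside the serotonin genes, CHRNA6 and HRH1 missed the threshold by q but would pass that looser cut too. How many of all tested features would pass it was not counted, so nothing is read from it. HTR1A couples to Gi/o and is the receptor by which serotonin neurons restrain their own firing. It stood at 1.41 FPKM in antibiotic and 0.657 in control (log2 fold 1.10, authors' q = 0.0503). HTR1D and HTR1B, the Gi/o-coupled receptors of nerve endings, stood at 1.35 and 1.37 FPKM in antibiotic and at 0.740 and 1.02 in control (authors' q = 0.119 and 0.364). HTR7, a Gs-coupled receptor linked to circadian timing, stood at 1.92 FPKM in antibiotic and 1.55 in control (authors' q = 0.337).

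The 2 tested Gq/11-coupled serotonin receptors had log2 folds below 0. With the summed FPKM of the groups set equal, these were 0.92 for HTR2C and 1.04 for HTR2A. Both stayed below the median of all tested features under that setting, 1.10. HTR2C, which mediates the appetite-lowering action of serotonin, stood at 5.85 FPKM in antibiotic and 6.74 in control (log2 fold -0.20, authors' q = 0.482). HTR2A stood at 1.29 FPKM in antibiotic and 1.37 in control (authors' q = 0.831). HTR2C held 39.7% of the summed serotonin receptor FPKM in antibiotic and 50.1% in control. HTR2C is also abundant in the choroid plexus. Of 6 tested markers of ependyma and choroid plexus 5 fell (83.3%) and 1 rose (16.7%), against 22.2% and 19.0% of all tested features. KCNJ13 fell to 1.09 FPKM in antibiotic, against 5.53 in control, and CLIC6 to 0.683 in antibiotic, against 3.44 in control (both authors' q = 0.000336). The rise was FOXJ1, at 3.78 FPKM in antibiotic and 0.955 in control (authors' q = 0.000891). These 6 markers summed to 78.5 FPKM in antibiotic and 306 in control, most of it TTR at 70.6 in antibiotic and 288.6 in control. None was listed at 0, and the part of these markers in the HTR2C value was not tested.

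Genes of the serotonin neurons themselves are given beside these receptors. SLC6A4, the serotonin transporter, rose to 13.1 FPKM in antibiotic, against 0.0965 in control, and TPH2, which starts serotonin synthesis, to 18.0 in antibiotic, against 0.329 in control (both authors' q = 0.000336). Of 8 tested transcription factors listed as markers of midbrain and raphe, 3 rose (37.5%) and none fell, against 19.0% and 22.2% of all tested features. Whether they mark only these regions was not tested. The median log2 fold was 1.11, with 7 above 0 and 1 (NR4A2) below. GATA3 rose to 2.89 FPKM in antibiotic, against 1.03 in control (authors' q = 0.000336), and TAL1 to 6.88 in antibiotic, against 3.85 in control (authors' q = 0.00114). The 13 matched members of that list summed to 41.7 FPKM in antibiotic and 29.2 in control. LMX1A and FOXA2 were listed at 0 in control. The largest parts of both sums were NKX2-2 (16.9 in antibiotic, 14.5 in control) and NR4A2 (7.30 in antibiotic, 7.92 in control). EN1 stood at 1.76 FPKM in antibiotic and 0.0524 in control, and LMX1B at 0.794 in antibiotic and 0.174 in control. Neither passed (authors' q = 0.279 and 0.162). The untested EN2, PITX3 and FOXA1 stood at 0.584, 0.489 and 0.746 FPKM in antibiotic and 0.00651, 0.0699 and 0.150 in control. The part of midbrain or raphe tissue in the receptor values was not tested for any receptor gene, the called ones included. HTR1A, DRD2 and CHRNA6 are examples that amine neurons also express.

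**Figure D2:**
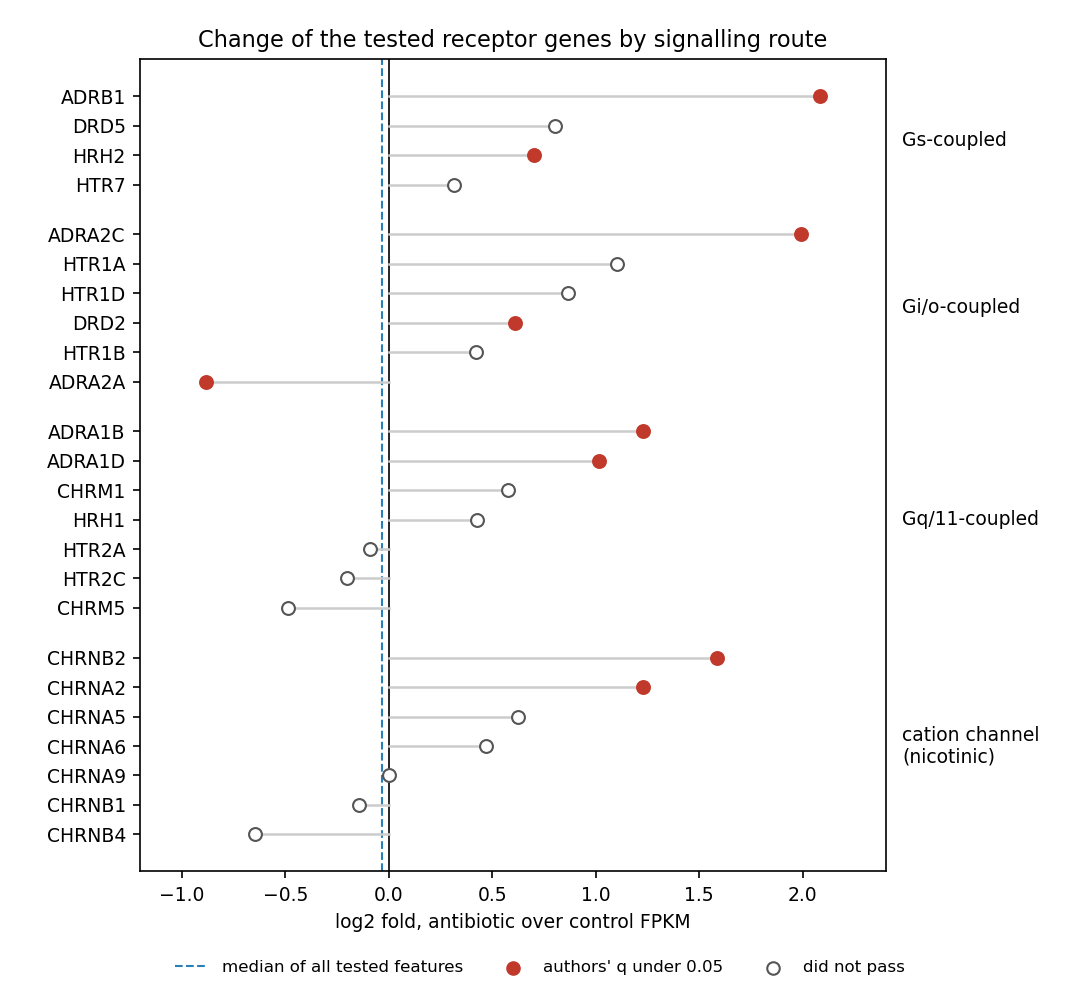
Log2 fold (antibiotic over control FPKM) of the 24 tested receptor genes, grouped by the G protein or channel they act through; filled points have an authors' q under 0.05 and the dashed line is the median of all tested features (-0.03). All 4 Gs-coupled genes lie above 0, and the Gi/o-coupled group holds both a 3.97-fold rise (ADRA2C) and the only fall that passed (ADRA2A).

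Acetylcholine receptors had 9 tested rows, of which 2 rose (22.2%, near the 19.0% of all tested features) and none fell, while 7 missed the threshold, and the median log2 fold was 0.47. Both rises were nicotinic subunits. CHRNB2, the beta subunit of the most common high-affinity nicotinic receptors of the brain, rose to 12.5 FPKM in antibiotic, against 4.16 in control (3.01-fold higher, log2 fold 1.59, authors' q = 0.000336). CHRNA2, an alpha subunit that can pair with it, rose to 4.29 FPKM in antibiotic, against 1.83 in control (2.34-fold higher, authors' q = 0.00332). In the authors' table CHRNB2 lies at chromosome 4, 104024535 to 104037091, and CHRNA2 at chromosome 14, 12376550 to 12388267. The 11 nicotinic rows summed to 30.0 FPKM in antibiotic and 17.4 in control, and without CHRNB2 to 17.5 in antibiotic and 13.2 in control. CHRNB2 held 41.7% of the nicotinic sum in antibiotic and 23.9% in control.

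The other nicotinic subunits did not pass. CHRNA6, a subunit known from dopamine neurons, stood at 5.84 FPKM in antibiotic and 4.22 in control (authors' q = 0.0988). Its neighbour on chromosome 17, CHRNB3, which joins it in such receptors, was not tested and stood at 0.127 FPKM in antibiotic and 0.0585 in control. CHRNB1, a subunit of the muscle receptor, stood at 2.33 FPKM in antibiotic and 2.58 in control (authors' q = 0.665), while the muscle subunits CHRNA1 and CHRNG were not tested, with at most 0.0245 FPKM in antibiotic and both listed at 0 in control. CHRNA9, known from hair cells of the ear, stood at 1.10 FPKM in both groups (authors' q = 0.995).

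CHRNA5, CHRNA3 and CHRNB4 form a gene cluster on chromosome 7 whose products assemble into a class of nicotinic receptor, and neither of its tested genes passed. CHRNA5 stood at 2.27 FPKM in antibiotic and 1.47 in control (log2 fold 0.62, authors' q = 0.321). CHRNB4 stood at 0.951 FPKM in antibiotic and 1.49 in control (log2 fold -0.65, authors' q = 0.18). CHRNA3 was not tested, at 0.531 FPKM in antibiotic and 0.481 in control. The authors' table gives CHRNA5 and CHRNA3 the same interval, 52770253 to 52806254, so reads from the stretch they share cannot be assigned to either from these values. CHRNB4 starts after a gap of 2542 bases, at 52808797.

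The muscarinic receptors are the G protein-coupled acetylcholine receptors. CHRM1, coupled to Gq/11, stood at 1.82 FPKM in antibiotic and 1.22 in control (authors' q = 0.144). CHRM5, also coupled to Gq/11, stood at 0.634 FPKM in antibiotic and 0.889 in control (authors' q = 0.225), and its row overlaps another row of the table. CHRM4, coupled to Gi/o, was not tested and stood at 0.435 FPKM in antibiotic and 0.671 in control. Beside the receptors stand the genes that make and clear acetylcholine. CHAT, which makes it, rose to 1.11 FPKM in antibiotic, against 0.106 in control (authors' q = 0.0285), and SLC5A7, the choline transporter, to 6.74 in antibiotic, against 0.773 in control (authors' q = 0.000336). Of the enzymes that break it down, ACHE rose to 83.8 FPKM in antibiotic, against 63.3 in control (authors' q = 0.0495), and BCHE fell to 10.8 in antibiotic, against 26.5 in control (authors' q = 0.000336).

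Grouped by signalling route, 2 of 4 tested Gs-coupled genes rose and none fell, with a median log2 fold of 0.75. The Gi/o-coupled genes had 2 rises and 1 fall among 6 tested, with a median of 0.74. The Gq/11-coupled genes had 2 rises, both of alpha-1 adrenoceptors, and no fall among 7 tested, with a median of 0.42. The tested channel subunits, all nicotinic, had 2 rises and no fall among 7, with a median of 0.47. These medians, and those of the 5 transmitters, ranged from 0.32 to 1.31 under upper quartile, trimmed mean and quantile scaling of the groups. The shares that rose were 50.0% for Gs, 33.3% for Gi/o and 28.6% for both Gq/11 and the channel subunits, against 19.0% of all tested features, and with at most 7 genes a route these shares turn on 1 or 2 genes. The fall is 16.7% of the Gi/o genes, against 22.2% of all tested features. The routes were not tested against each other.

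In antibiotic, each of the 15 untested rows stood below each tested row, while in control the ranges overlapped. Their FPKM ran from 0 to 0.603 with a median of 0.127 in antibiotic, and from 0 to 0.671 with a median of 0.127 in control. The antibiotic value was above the control value in 10 of them and below it in 5. The 5 with the highest mean were HTR4, CHRM4, CHRNA3, ADRA2B and HTR3B. HTR4, a Gs-coupled serotonin receptor, stood at 0.603 FPKM in antibiotic and 0.600 in control. The channel subunits HTR3B and HTR3A stood at 0.469 and 0.0420 FPKM in antibiotic and at 0.284 and 0.0642 in control, so the serotonin-gated channel is represented by untested rows alone. The remaining serotonin rows without a test were HTR1F, HTR2B and HTR6. How the authors chose the rows to test is not given in the labels, and the counts above hold for tested rows and not for the receptor families as wholes. Matching by gene ID found 4 more receptor rows under other names, DRD1, DRD3, ADRA1A and CHRNE, none of them tested. DRD1, the main Gs-coupled dopamine receptor, stood at 0.515 FPKM in antibiotic and 0.504 in control, and ADRA1A is given with the alpha-1 genes. DRD3 stood at 0.460 FPKM in antibiotic and 0.462 in control, and CHRNE at 0.0568 in antibiotic and 0.0869 in control. For other receptors of these transmitters, among them HRH3, CHRM2, CHRM3, CHRNA4 and CHRNA7, no row was found by symbol or gene ID. They were therefore not analysed here. Of the 39 members only 28 had a gene ID with a known name, so rows under other names may have been missed.

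**Figure D3:**
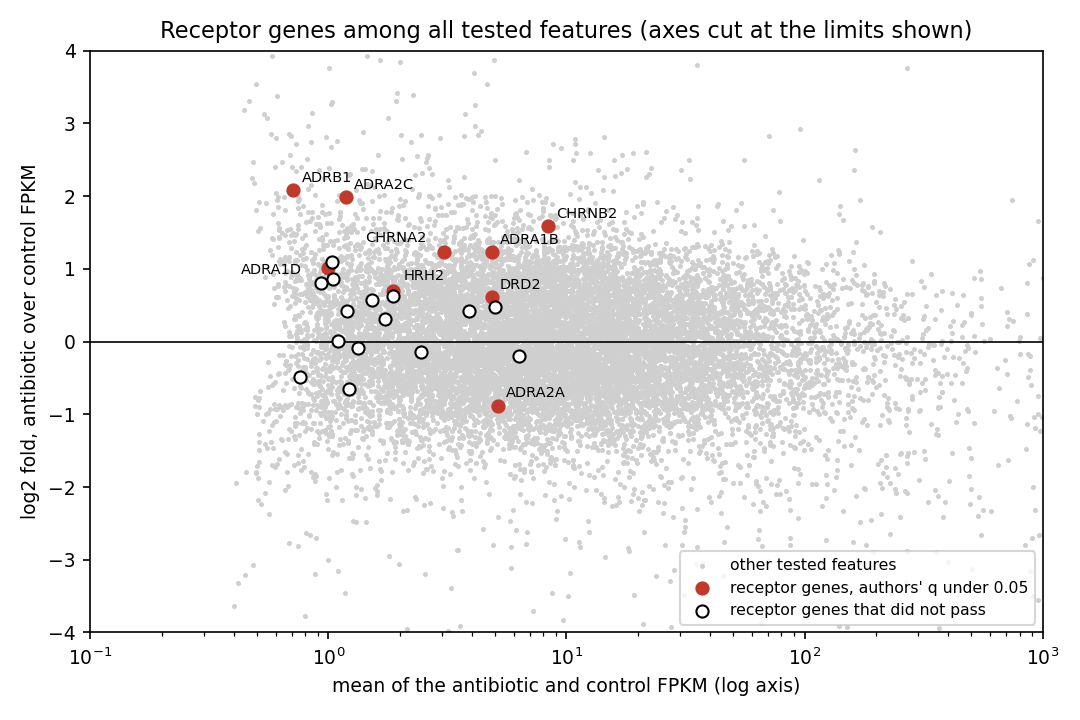
Log2 fold (antibiotic over control FPKM) against the mean FPKM of both groups (log axis) for the tested features, with the 24 tested receptor genes on top, filled where the authors' q was under 0.05. The receptor genes sit at means of 0.713 to 8.33 FPKM, and 18 of the 24 lie above 0.

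Levels and locus lengths were set beside these counts, with levels taken as the mean of both groups. A locus is the interval given for a row, which need not be the length of 1 gene. CHRNA5 shares its interval with CHRNA3, and that of CHRM5 overlaps another row. Of tested features with a mean of 1 to under 5 FPKM, 5 of 16 receptor genes rose and none fell, against 15.7% and 15.1% of 4093 features. With a mean under 1 FPKM 2 of 4 rose and none fell, against 8.72% and 10.7% of 619 features, and with a mean of 5 FPKM or more 1 of 4 rose and 1 fell, against 21.2% and 26.4% of 8640 features. A minimum of 5 FPKM in either group left 3 rises and 1 fall among 6 receptor genes, against 22.0% and 26.4% of 9303 features, but CHRNB2, ADRA1B and DRD2 reached it only in antibiotic and ADRA2A only in control, so nothing is read from these counts. Long loci had fewer rises in the table as a whole, and of loci over 50000 bases 12.8% rose, 23.4% fell and the median log2 fold was -0.15. Of the 6 receptor genes with such loci 1 rose (ADRA1B), none fell and the median was 0.11. Of the 13 with loci of 5000 to 50000 bases 5 rose and none fell, against 22.8% and 21.6% of 7343 features, and of the 5 with shorter loci 2 rose and 1 fell, against 19.4% and 21.4% of 1326 features.

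Genes that act downstream of the receptors were counted from the same table, in which 19.0% of all tested features rose and 22.2% fell. Of 15 tested effector genes (adenylyl cyclases, phospholipase C beta and the potassium channels opened by Gi/o) 6 rose (40.0%) and none fell, and the median log2 fold was 0.53. ADCY6, an adenylyl cyclase, rose to 11.5 FPKM in antibiotic, against 5.17 in control, and PLCB3, a phospholipase that Gq/11 activates, to 7.78 in antibiotic, against 3.87 in control (both authors' q = 0.000336). Of 6 tested genes for receptor kinases and arrestins, which switch active receptors off, 5 rose (83.3%) and none fell, with a median of 0.70. ADRBK1, also called GRK2, rose to 65.2 FPKM in antibiotic, against 27.1 in control (authors' q = 0.000336), and GRK5 to 5.75 in antibiotic, against 3.54 in control (authors' q = 0.00162). Of 9 tested G protein alpha subunit genes 2 rose (22.2%, near the share over all features) and 1 fell (11.1%), with a median of -0.24 that became 0.10 under quantile normalization. GNAI1, an inhibitory alpha subunit, fell to 26.8 FPKM in antibiotic, against 56.7 in control (authors' q = 0.000336). GNA11, an alpha subunit of the Gq/11 route, rose to 15.2 FPKM in antibiotic, against 9.51 in control (authors' q = 0.00114).

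Receptor partners and chaperones had 4 rises (50.0%) and 1 fall (12.5%) among 8 tested genes, against 19.0% and 22.2% of all tested features. Their median log2 fold was 0.58. CALY, a vesicle protein first described as a partner of dopamine receptors, rose to 220.1 FPKM in antibiotic, against 69.0 in control (authors' q = 0.000336). RIC3, a chaperone that helps nicotinic receptors to assemble, rose to 24.4 FPKM in antibiotic, against 13.7 in control (authors' q = 0.00229). Genes for amine synthesis, transport and breakdown had 6 rises and 2 falls among 12 tested, with a median of 0.68, and those for acetylcholine 3 rises and 1 fall among 5, with a median of 2.72. The latter median is the value of PRIMA1, which stood at 1.27 FPKM in antibiotic and 0.192 in control and did not pass (authors' q = 0.346).

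Markers of cell types were counted in the same comparison, in which 19.0% of all tested features rose and 22.2% fell. With at most 8 tested genes a list, its shares turn on 1 or 2 genes. Neuron markers had 4 rises and 1 fall among 8 tested and summed to 1553 FPKM in antibiotic and 1240 in control. Of these, NEFM rose to 220.2 FPKM in antibiotic, against 60.3 in control, and TUBB3 to 307.0 in antibiotic, against 108.4 in control (both authors' q = 0.000336). The fall was STMN2, named after its value was seen, at 252.0 FPKM in antibiotic and 373.5 in control (authors' q = 0.0096), and the log2 fold lay below 0 in 4 of the 8. Endothelial markers had 4 rises and no fall among 6 and summed to 174.8 FPKM in antibiotic and 96.8 in control, with VWF at 16.6 in antibiotic and 4.06 in control and CLDN5 at 105.6 in antibiotic and 54.9 in control (both authors' q = 0.000336). Astrocyte markers had 2 rises (among them GFAP) and 1 fall (AQP4) among 6, and oligodendrocyte markers 2 rises (among them CNP) and 1 fall (MAL) among 7. Microglia markers had 1 rise (TREM2) and 3 falls (among them C1QA) among 6, and mural cell markers 1 rise (PDGFRB) and 1 fall (ACTA2) among 6. None of the matched markers of these 6 cell types was listed at 0 in either group. Pituitary markers summed to 1.69 FPKM in antibiotic and 1.91 in control, and the only tested one, LHB, did not pass (authors' q = 0.808). Skeletal muscle markers summed to 7.15 FPKM in antibiotic and 3.54 in control, and ACTA1 rose to 5.41 in antibiotic, against 2.58 in control (authors' q = 0.00467). The part of these cell types in the receptor values was not tested.

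**Figure D4:**
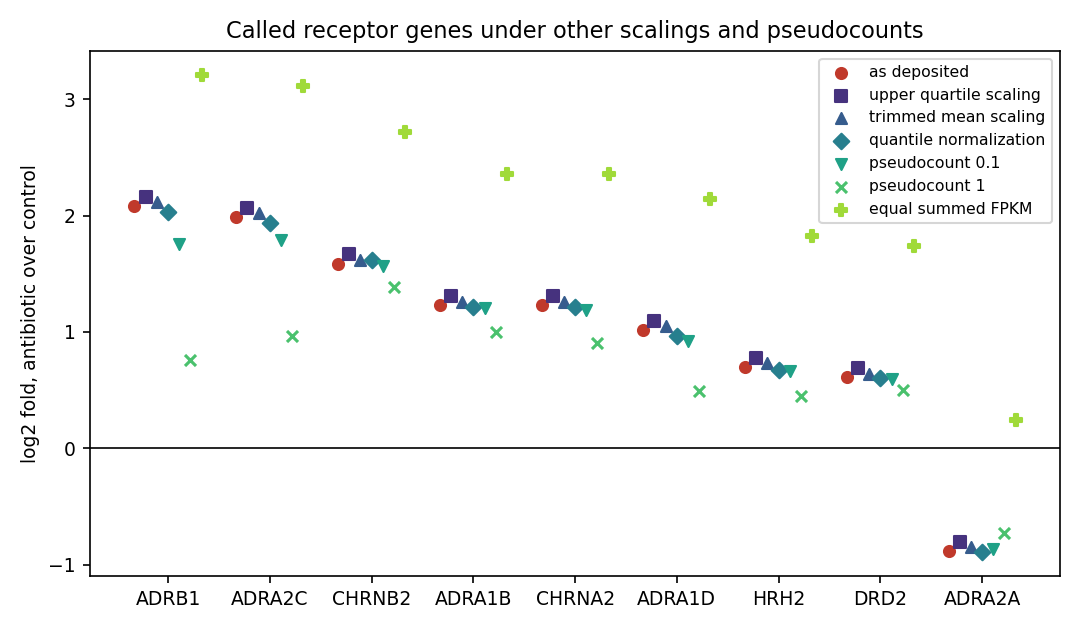
Log2 fold (antibiotic over control) of the 9 receptor genes with an authors' q under 0.05, as deposited, after 4 scalings of the groups and with 0.1 or 1 FPKM added to both values. Setting the summed FPKM equal lifts every gene by 1.13, which puts ADRA2A at 0.25 and the median of all tested features at 1.10. Apart from that setting ADRB1 runs from 0.76 (1 FPKM added) to 2.16 (upper quartile scaling).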

How the data were processed

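RNA-seq of hypothalamus was made from 3 antibiotic and 4 control piglets, grouped by sample title. Per the labels' protocols, RNA came from frozen tissue by Trizol and libraries from a TruSeq kit. Bowtie 0.12.2 and the builds mm8 and susScr3 appear, with no role stated, in the submitters' processing notes. No source used here states the annotation, the use of strand or the build of the coordinates. Per the file headers, the authors deposited 1 FPKM per gene and group, a log2 fold, a p-value and a q-value. The authors' test score was not used, and 6 blank rows were left out. The smallest deposited p-value is 5e-05, shared by 2081 features.

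Receptor rows were taken by symbol, assigned to a transmitter and a coupling from textbook knowledge, and counted by the authors' q under 0.05. Members and lists were chosen with earlier results of these data known. Of 152 list symbols 128 matched a row, and the 2 with the smallest q at a mean of at least 1 FPKM were named, as were 7 transmitter genes of fixed interest. Every tested receptor was named, and of the untested rows the 5 with the highest mean. Other untested rows, DBH, SLC6A2, PRIMA1 and further members of the marker lists were named after their values were seen. Medians and counts were computed with Python 3.11.15 and pandas 2.3.3, and the scaling code was tested on simulated data. Values per library were lacking, so the depth is unknown and the planned limma test, leaving out libraries and blocking were not run. No sequence was used.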

Additional observations from a re-analysis of the deposited data

How the results depend on the processing

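The counts rest on the authors' q, which no alternative could recompute. At a q under 0.01, 4 of the 24 tested receptor genes rose and 1 of the 24 fell, against backgrounds of 12.8% and 15.5%. Asking also for a 2-fold change left 6 rises and 0 falls, against 7.37% and 8.44%, and leaving out genes below 5 FPKM in both groups kept 3 rises and 1 fall, each of which passed only through the group where it was higher. The median log2 fold of 0.59 was 0.67, 0.62 and 0.56 under upper quartile, trimmed mean and quantile scaling, which moved the median of all tested features by at most 0.08. It was 0.39 with 1 FPKM added to both values, 0.42 over all members above 0 in both groups, and 0.32 when the rows found by gene ID were added, an alternative chosen after seeing the data, as were the backgrounds by level, locus length and gene ontology term. Setting the summed FPKM of all features equal, also chosen after seeing the data, gave a median of 1.72 and a log2 fold of 0.25 for ADRA2A, whose direction it reversed, as it did for 5 genes that were not called. The same setting put the median of all tested features at 1.10, so ADRA2A stayed below it. CHRNA9, at 1.10 FPKM in both groups, changed its sign under quantile normalization. No paired analysis was possible because the files give no value per library, and leaving out single libraries was not run for the same reason. The depth of each library is unknown, and adding 1 FPKM to both values took the log2 folds of ADRB1, ADRA2C and ADRA1D, all under 1 FPKM in control, to 0.76, 0.97 and 0.49, against 2.08, 1.99 and 1.02 as deposited, and that of HRH2 to 0.45, against 0.70.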
